A study of Rattus norvegicus with 3 samples.

Results

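Glutamate, GABA and glycine act on a closed set of receptor subunit genes, and the 52 such genes listed in the files, of 17328 genes in all, were followed across the cell types of the injured rat spinal cord. They were taken by symbol: the AMPA (Gria), kainate (Grik), NMDA (Grin), delta (Grid) and metabotropic (Grm) glutamate receptors, the GABA-A (Gabra, Gabrb, Gabrg and related), GABA-A rho (Gabrr) and GABA-B (Gabbr) receptors, and the glycine receptors (Glra, Glrb). The tissue was the lesion epicenter of wild-type (WT) Sprague Dawley rats aged 17 weeks, collected 49 days after spinal cord injury. Nuclei were profiled from 3 libraries, each the only one of its group: no treatment, a scaffold, and a scaffold releasing hepatocyte growth factor (HGF), both scaffolds having been in place for 7 days. All groups carried the injury, so there was no uninjured cord, and the number of animals behind a library is not given in the sources used here.

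Ionotropic glutamate receptors (AMPA, kainate and NMDA) are cation channels that carry fast excitation, and delta receptors share their structure but are bound by cerebellin and neurexin partners at synapses. Metabotropic glutamate receptors and GABA-B receptors are coupled to G proteins, whereas GABA-A and glycine receptors are chloride channels that carry fast inhibition in the cord. Glia also carry some of these genes: oligodendrocyte precursors receive synapses onto AMPA receptors, and astrocytes respond to glutamate and GABA.

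The libraries held 2252, 2168 and 906 nuclei in the order untreated, scaffold and HGF scaffold, with 5953189, 5791715 and 1450757 unique molecular identifiers (UMIs, counted molecules). The median nucleus had 1407.5, 1639 and 1047 UMIs, and 4 barcodes occurred in more than 1 library. Nuclei were grouped into 20 clusters without the receptor genes, and each cluster was named only where its markers allowed it. The classes so named are marker-defined ("neuron-like" and so on) and are called neurons, astrocytes, oligodendrocytes, oligodendrocyte precursors (OPC, committed precursors included), Schwann cells, myeloid cells, T or NK cells, endothelial cells and fibroblasts below. Another 6 clusters with 1388 nuclei stayed unnamed. All 14 neuronal markers found in the files had UMIs in the neurons of the untreated and scaffold libraries and 13 did in those of the HGF scaffold library. Neurons numbered 147, 178 and 30 nuclei, with median depths of 5364, 3931.5 and 1686 UMIs. Nuclei with at least 3 markers each of 5 or more of 7 lineages, possible doublets or nuclei with RNA of other cells, numbered 204, 258 and 27, of which 38, 49 and 0 were among the neurons.

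Receptor transcripts made up 1.01% of the UMIs of the untreated library, 0.663% of the scaffold library and 0.372% of the HGF scaffold library. These shares follow the mix of cells in each library as well as the level per cell: myeloid nuclei were 11.3%, 24.8% and 44.9% of the nuclei. Levels are therefore given below within a lineage, as CPM, the gene's UMIs per 1000000 UMIs of that lineage in that library. Intervals are exact 95% Poisson intervals, or exact conditional intervals for ratios. They cover counting error only, and with 1 library per group no difference between groups has a replicate check or a test.

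Of the 52 genes, 43 had at least 20 UMIs over all nuclei, the minimum for a gene to be compared, and together the set held 104126 UMIs. Metabotropic glutamate receptors had 26617 UMIs over 8 genes, kainate receptors 21348 over 5 and AMPA receptors 10962 over 4. The GABA-A genes had 8674 UMIs over 16, NMDA receptors 6494 over 7, GABA-B receptors 3972 over 2, glycine receptors 2428 over 5 and the rho genes 37 over 3. The 9 genes under the minimum were Gabra6 at 0 UMIs, Gabrq at 1, Gabrd, Gabre, Gabrr3, Grin3b and Grm6 at 2 each, Grm2 at 3 and Gabrr1 at 6. Gabra6 and Gabrd, subunits best known from cerebellar granule cells, and Grm6, the receptor of retinal bipolar cells, were thus close to absent from these counts. Gabrp reached 22 UMIs but fell under the minimum once the unnamed clusters were left out, so 42 genes were placed by lineage.

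Neurons had the highest CPM of the 9 lineages for 28 of these 42 genes (66.7%), whereas they had the highest CPM for 8.68% of all 11677 genes compared in the same way. For 21 of the 42 the neuronal level was at least 2-fold above the next lineage with an interval above 1, against 3.14% of all 11677 genes. The remaining 14 genes peaked elsewhere: 4 in astrocytes (18.0% of all genes), 4 in OPC (4.35%), 2 in oligodendrocytes (7.42%), 3 in T or NK cells (21.2%) and 1 in myeloid cells (13.9%). A 2-fold margin over the next lineage was reached by 1 gene in astrocytes (2.52% of all genes), 1 in oligodendrocytes (0.831%) and 1 in OPC (0.471%). The lineage with the highest level was the same in the untreated and scaffold libraries for 37 of the 42 genes, and in all 3 libraries for 32.

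**Figure D1:**
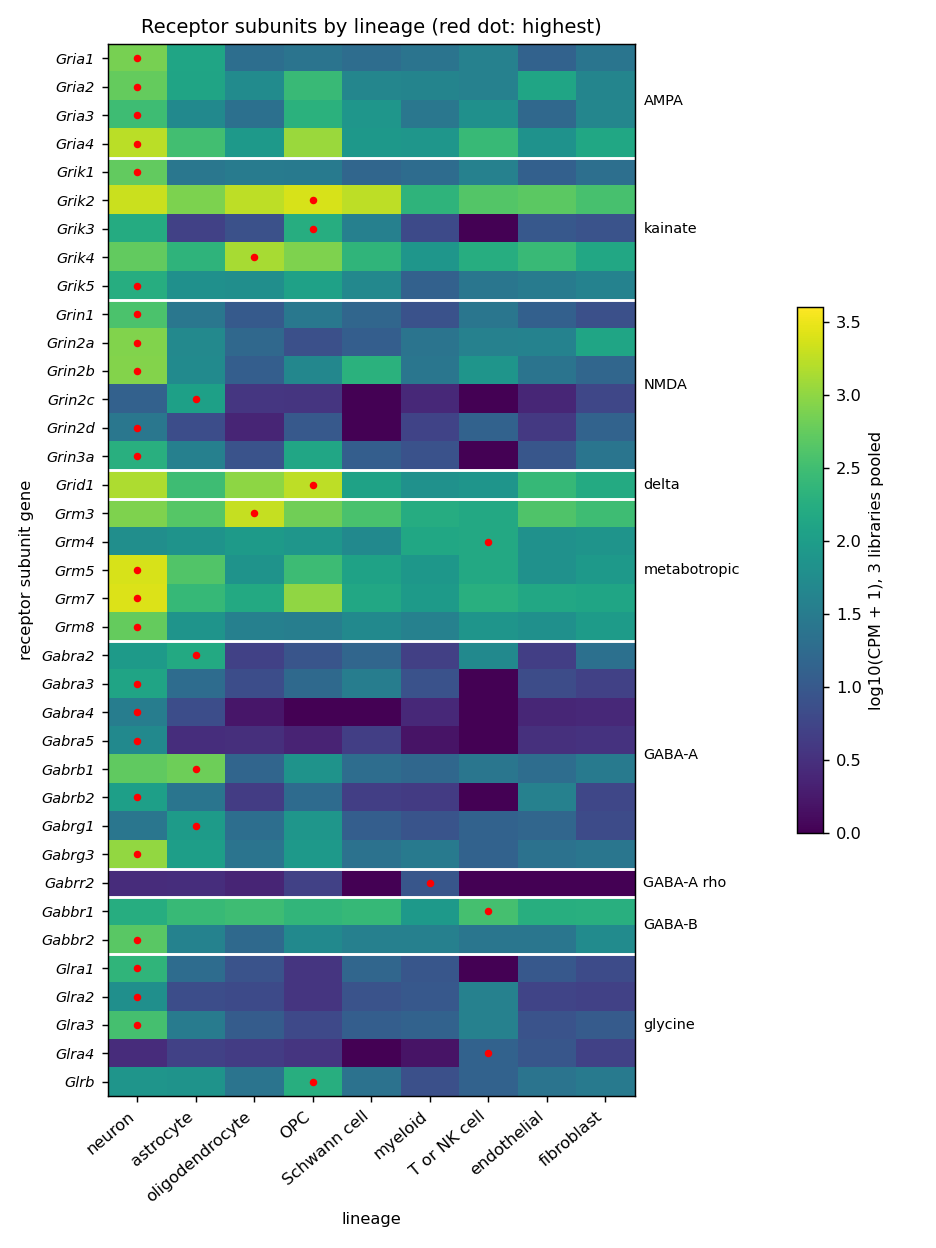
Level of 37 receptor subunit genes with at least 20 UMIs (rows, by family) in 9 lineages (columns), as log10(CPM + 1) of the UMIs pooled over the 3 libraries, with a red dot on the highest lineage of each gene. Neurons hold 23 of these dots, and the dots outside neurons include Grm3 and Grik4 in oligodendrocytes and Gabrb1, Gabra2, Gabrg1 and Grin2c in astrocytes.

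A gene's level outside neurons can hold RNA released from neurons, so the sum of 11 genes taken as neuronal, none a receptor, was followed as a reference. Relative to the neuronal level that sum was 13.1% in astrocytes, 8.39% in Schwann cells, 8.09% in OPC, 5.55% in T or NK cells, 5.13% in myeloid cells, 3.63% in endothelial cells, 3.57% in fibroblasts and 3.19% in oligodendrocytes. Rbfox3, a neuronal nuclear protein among the 11, was at 0 UMIs in oligodendrocytes, Schwann cells, T or NK cells, endothelial cells and fibroblasts. The 40 receptor genes with at least 20 UMIs in neurons had a median of 17.8% of their neuronal level in astrocytes, 13.1% in OPC and 4.67% in oligodendrocytes. The interval lay above the reference for 22 of the 40 in fibroblasts, 20 in OPC, 18 in oligodendrocytes, 17 in astrocytes, 14 in endothelial cells, 13 in Schwann cells, 12 in myeloid cells and 9 in T or NK cells. A receptor gene at or below the reference share in a lineage is read here as background. This reading has a limit: of the 11 reference genes, 8 were highest in neurons, 2 in astrocytes and 1 in another lineage. The share in astrocytes thus includes genes that peaked there and may be too high as a measure of background. How much of the reference outside neurons came from neurons was not tested.

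Among the NMDA receptor genes, the obligatory subunit Grin1 had the widest neuronal margin. It stood at 423, 307 and 679 CPM in the neurons of the untreated, scaffold and HGF scaffold libraries and at 379 CPM in all neurons, 14.4-fold (9.27 to 23.7) above OPC. Its partners Grin2b (1007, 706 and 629 CPM) and Grin2a (898, 727 and 646 CPM), which set the kinetics of the channel, were 4.33-fold and 6.31-fold above the next lineage. Those next lineages were not glia of the central nervous system: Schwann cells for Grin2b (199 CPM) and fibroblasts for Grin2a (129 CPM). Grin2d had 25.4 CPM in neurons and missed the 2-fold margin over fibroblasts, at 1.97-fold. Grin3a had 184 CPM in neurons, 1.36-fold (1.09 to 1.71) above OPC. Grin2c had the fewest neuronal UMIs of the compared NMDA genes, at 12.01 CPM, and peaked in astrocytes.

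The AMPA subunits were all highest in neurons, but their margins over OPC differed. Gria1 was at 791, 633 and 728 CPM in neurons, 5.53-fold above astrocytes. Gria2, whose edited form keeps calcium out of the channel, was at 716, 364 and 679 CPM in neurons and 2.02-fold (1.75 to 2.35) above OPC. Gria4, the AMPA gene with the most neuronal UMIs, was at 1907, 1381 and 2235 CPM, 1.45-fold (1.35 to 1.56) above OPC. Gria3, with the fewest, was at 372, 218 and 331 CPM, 1.505-fold above OPC. Neurons and precursors thus both held AMPA receptor transcripts, and Gria1 was the AMPA gene with the widest neuronal margin.

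The kainate family split by gene. Grik1 was neuronal, at 649, 423 and 315 CPM in the neurons of the 3 libraries and 14.4-fold (4.93 to 70.1) above the next lineage, T or NK cells, where it had few UMIs. Grik2 was the most widespread: 2415 CPM in OPC, 2047 in neurons, 1758 in oligodendrocytes, 1747 in Schwann cells and 769 in astrocytes. Grik3, with the fewest neuronal UMIs of the family, was at 173 CPM in OPC and 163 in neurons, and the ratio of 1.07 (0.867 to 1.31) did not separate them. Grik4 was highest in oligodendrocytes, at 1324 CPM against 791 in OPC and 536 in neurons. Grik5, which like Grik4 needs a partner subunit to form a channel, was at 175 CPM in neurons and 114 in OPC.

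Of the delta receptors, Grid1 was at 1721 CPM in OPC, 1442 in neurons and 977 in oligodendrocytes, with OPC highest in each of the 3 libraries. The cerebellins and neurexins, the listed partners of delta receptors, left 3 of 7 genes above the minimum for lineage comparison, with 2 highest in neurons and 1 in OPC.

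Grm5, a group I metabotropic receptor that signals through phospholipase C, was neuronal, at 2787, 1886 and 3261 CPM in neurons, 5.69-fold above astrocytes. Among the receptors that lower cyclic AMP, Grm7, the family's gene with the second most UMIs over all nuclei and the most in neurons, was at 3124, 1966 and 1639 CPM in neurons and 2.58-fold above OPC (996 CPM). Grm8 was at 575, 537 and 679 CPM in neurons, 6.04-fold above fibroblasts. Grm4, with the fewest neuronal UMIs of those compared, was low across lineages and not highest in neurons, with 149 CPM in T or NK cells from 12 UMIs, 139 in myeloid cells and 59.1 in neurons. Grm3 alone of the family peaked in oligodendrocytes.

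GABA-A receptors usually combine alpha, beta and gamma subunits. Gabrg3, with the most neuronal UMIs, was at 1224, 829 and 844 CPM in neurons and 10.2-fold above astrocytes. The alpha genes Gabra3, Gabra5 and Gabra4 were also highest in neurons, at 124, 49.4 and 32.8 CPM. Gabra5 was 13.7-fold above Schwann cells, with a wide interval (2.40 to 545) since Schwann cells had almost none.

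The beta subunit Gabrb2 was at 106 CPM in neurons and 37.4 in endothelial cells. The endothelial signal came almost whole from the untreated library: 58.4 CPM there, 8.35 in the scaffold library from 3 UMIs and 0 UMIs in the HGF scaffold library.

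GABA-B receptors are dimers of both gene products. Gabbr2, which couples to the G protein, was neuronal at 484, 487 and 397 CPM, 8.93-fold above fibroblasts. Gabbr1, which binds GABA, was spread over all lineages, from 85.1 CPM in myeloid cells through 176 in neurons and 299 in oligodendrocytes to 349 in T or NK cells. The ratio of T or NK cells to oligodendrocytes, 1.17 (0.766 to 1.71), did not separate them. The partners of this receptor thus had different patterns across lineages.

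Glycine receptors join alpha subunits with the beta subunit Glrb, which binds gephyrin at the synapse. Glra3, with the most neuronal UMIs, was at 423, 251 and 447 CPM in neurons, 9.29-fold above T or NK cells. Glra1 was at 248, 199.7 and 348 CPM, 12.7-fold (6.66 to 28.0) above astrocytes. Glra2 was at 60.5 CPM in neurons and could not be separated from T or NK cells (ratio 1.62, 0.542 to 7.96). Glra4, with the fewest neuronal UMIs, had 38 UMIs in all nuclei, and its peak in T or NK cells rests on 1 UMI. Glrb departed from the alpha genes: it was highest in OPC at 180.0 CPM, 2.45-fold (1.94 to 3.10) above neurons at 73.4 CPM, and the OPC level was 207, 145 and 150 CPM in the 3 libraries against 79.9, 67.3 and 49.7 CPM in neurons.

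**Figure D2:**
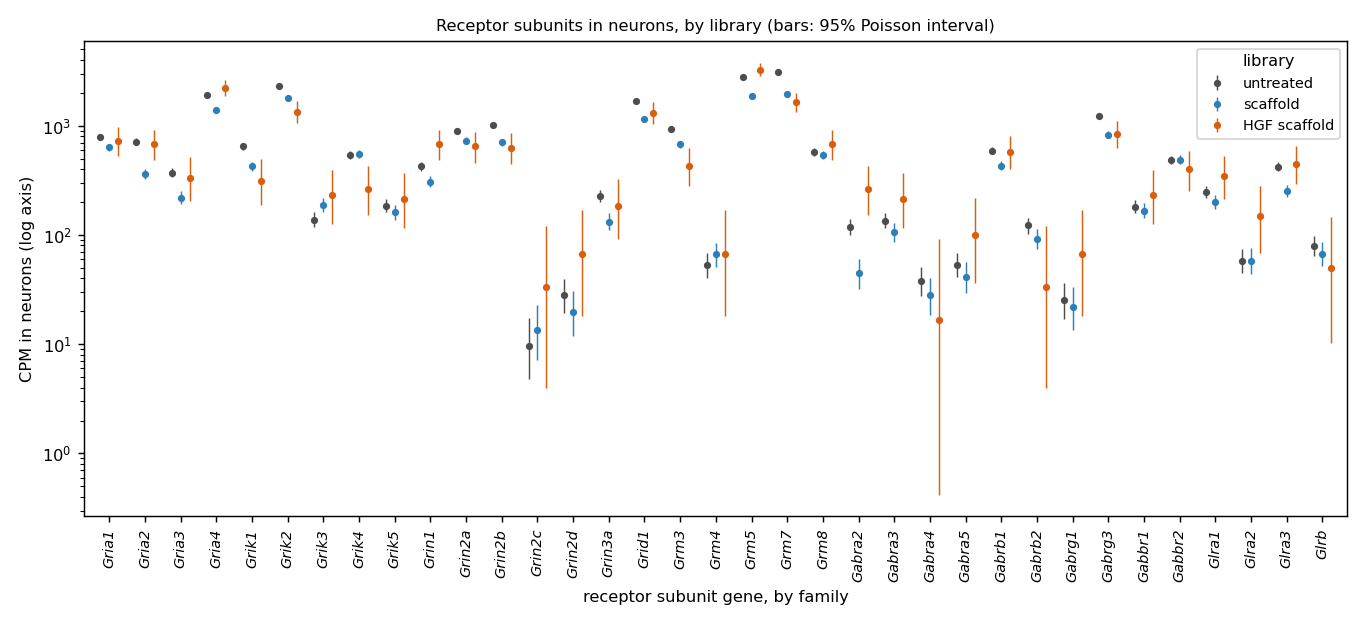
CPM in neurons (log axis) of 35 receptor subunit genes with at least 20 neuronal UMIs, by family, with 95% Poisson intervals; grey, blue and orange points are the untreated, scaffold and HGF scaffold libraries. Scaffold points lie below untreated ones for most genes (35 of all 40 ratios tested were under 1), and the HGF scaffold intervals are wide because that library had 30 neurons.

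Oligodendrocytes, the myelinating cells of the cord, were led by Grm3 and Grik4. Grm3 was at 2416, 1418 and 1385 CPM in the oligodendrocytes of the untreated, scaffold and HGF scaffold libraries, and at 936, 675 and 430 CPM in neurons. The oligodendrocyte level was higher in each library, and 2.41-fold (2.27 to 2.56) higher over all 3. Grik4 was at 1467, 1196 and 1051 CPM in oligodendrocytes, 1.67-fold (1.53 to 1.84) above OPC and at 247% of its neuronal level. Grm3 was at 241% of its neuronal level there, beside a neuronal reference of 3.19%. Grik2 and Grid1 were at 1758 and 977 CPM, and Gabbr1 at 299 CPM.

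OPC were the peak lineage of 4 receptor genes (4.35% of all genes), as many as astrocytes (18.0% of all genes): Grik2 (2673, 1604 and 4052 CPM in the 3 libraries), Grid1 (1968, 1308 and 1824 CPM), Glrb and Grik3 (167, 152 and 299 CPM). Only Glrb had a 2-fold margin over the next lineage. Gria4 (1351, 830 and 1271 CPM), Grm7 (1249, 663 and 733 CPM), Gria2 (285, 174 and 628 CPM) and Grin3a (144, 119 and 150 CPM) were present besides. Of 11 compared auxiliary subunits of AMPA and kainate receptors, 8 were highest in neurons and 3 in OPC: Cacng4 at 277 CPM, Neto1 at 209 and Shisa7 at 34.2. The transmembrane regulator Cacng4 was 3.71-fold above the next lineage. The HGF scaffold library had 42 OPC, so its OPC levels are listed and not compared.

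Astrocytes were the peak lineage of 3 GABA-A subunits and 1 NMDA subunit. Gabrb1 was at 837, 493 and 391 CPM in astrocytes and at 591, 429 and 579 CPM in neurons, with 1.24-fold (1.10 to 1.41) more in astrocytes over all libraries and the opposite order in the HGF scaffold library, which had 23 astrocytes. Gabra2 was at 185, 121 and 223 CPM in astrocytes and at 119, 44.5 and 265 CPM in neurons, 1.72-fold (1.30 to 2.25) higher in astrocytes over all libraries and again in the opposite order in the HGF scaffold library, from 4 and 16 UMIs. Gabrg1 was at 119, 70.4 and 112 CPM in astrocytes and 76.2 CPM in OPC, a ratio of 1.23 (0.821 to 1.84) that did not separate them, while neurons had 24.9 CPM. An alpha, a beta and a gamma subunit were thus present in these cells. Grin2c was at 101, 110 and 279 CPM in astrocytes, 9.32-fold (5.76 to 15.5) above neurons. Slc1a2, the main astrocytic glutamate transporter, stood beside them at 432 CPM in astrocytes.

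The astrocytic GABA-A genes are neighbours. In RefSeq's annotation of the rat assembly GRCr8 the order on chromosome 14 is Gabrb1, Gabra4, Gabra2 and Gabrg1, with 1 other listed gene (Cox7b2) inside the cluster. Gabrb1, Gabra2 and Gabrg1 peaked in astrocytes, and Gabra4 in neurons (32.8 CPM against 5.99 in astrocytes). Gabrg3 and Gabra5, in a cluster on chromosome 1, were both highest in neurons, as was Gabrb2 in a cluster on chromosome 10, where Gabra6 had 0 UMIs. Gria2 and Glrb, neighbours on chromosome 2, peaked in neurons and OPC.

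The start regions of 3 of the chromosome 14 genes are shown because neighbouring genes with different peak lineages differed in their content of the dinucleotide CG, which reads the same on both strands and cannot overlap itself. Each window runs from 250 bases before to 50 bases after the annotated start, 5′ to 3′ on the gene's strand, from RefSeq on GRCr8, with each CG in capitals: Gabrg1 at chr14:37750042-37750341 (plus strand), Gabrb1 at chr14:36902844-36903143 (minus strand) and Gabra4 at chr14:36944497-36944796 (plus strand).
Gabrg1: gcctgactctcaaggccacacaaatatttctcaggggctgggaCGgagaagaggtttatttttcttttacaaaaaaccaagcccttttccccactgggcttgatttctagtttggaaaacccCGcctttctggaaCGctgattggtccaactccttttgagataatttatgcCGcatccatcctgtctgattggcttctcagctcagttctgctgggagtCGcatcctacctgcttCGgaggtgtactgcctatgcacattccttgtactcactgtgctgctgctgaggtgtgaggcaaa
Gabrb1: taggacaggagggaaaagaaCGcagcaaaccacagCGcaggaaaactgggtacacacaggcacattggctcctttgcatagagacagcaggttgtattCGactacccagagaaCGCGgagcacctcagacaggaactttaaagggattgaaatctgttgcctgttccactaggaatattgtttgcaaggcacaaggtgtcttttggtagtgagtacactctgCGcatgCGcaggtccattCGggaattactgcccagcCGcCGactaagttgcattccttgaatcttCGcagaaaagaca
Gabra4: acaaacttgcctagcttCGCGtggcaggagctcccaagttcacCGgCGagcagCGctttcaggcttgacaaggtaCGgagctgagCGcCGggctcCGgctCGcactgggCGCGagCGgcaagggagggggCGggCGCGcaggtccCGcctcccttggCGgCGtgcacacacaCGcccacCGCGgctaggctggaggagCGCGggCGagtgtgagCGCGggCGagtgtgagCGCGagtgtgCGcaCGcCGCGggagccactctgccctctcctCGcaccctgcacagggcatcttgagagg
The windows of Gabrg1 and Gabrb1, which peaked in astrocytes without a 2-fold margin, held 6 and 11 CG, and that of the neuron-high gene Gabra4 held 35. Of all 27457 windows in the table, 58.1%, 41.7% and 6.55% held as many or more, and the median window held 7. The 34 receptor genes with a window had a median of 11. The contrast was not seen over the set: the median was 11 both for the 12 genes at least 2-fold higher in neurons and for the 15 other compared genes. The windows of the neuron-high genes Gabra3, Grm5 and Gabrb2 held 0, 1 and 9 CG. This is a description of 3 windows, and no reading of methylation or factor binding was made in these nuclei.

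**Figure D3:**
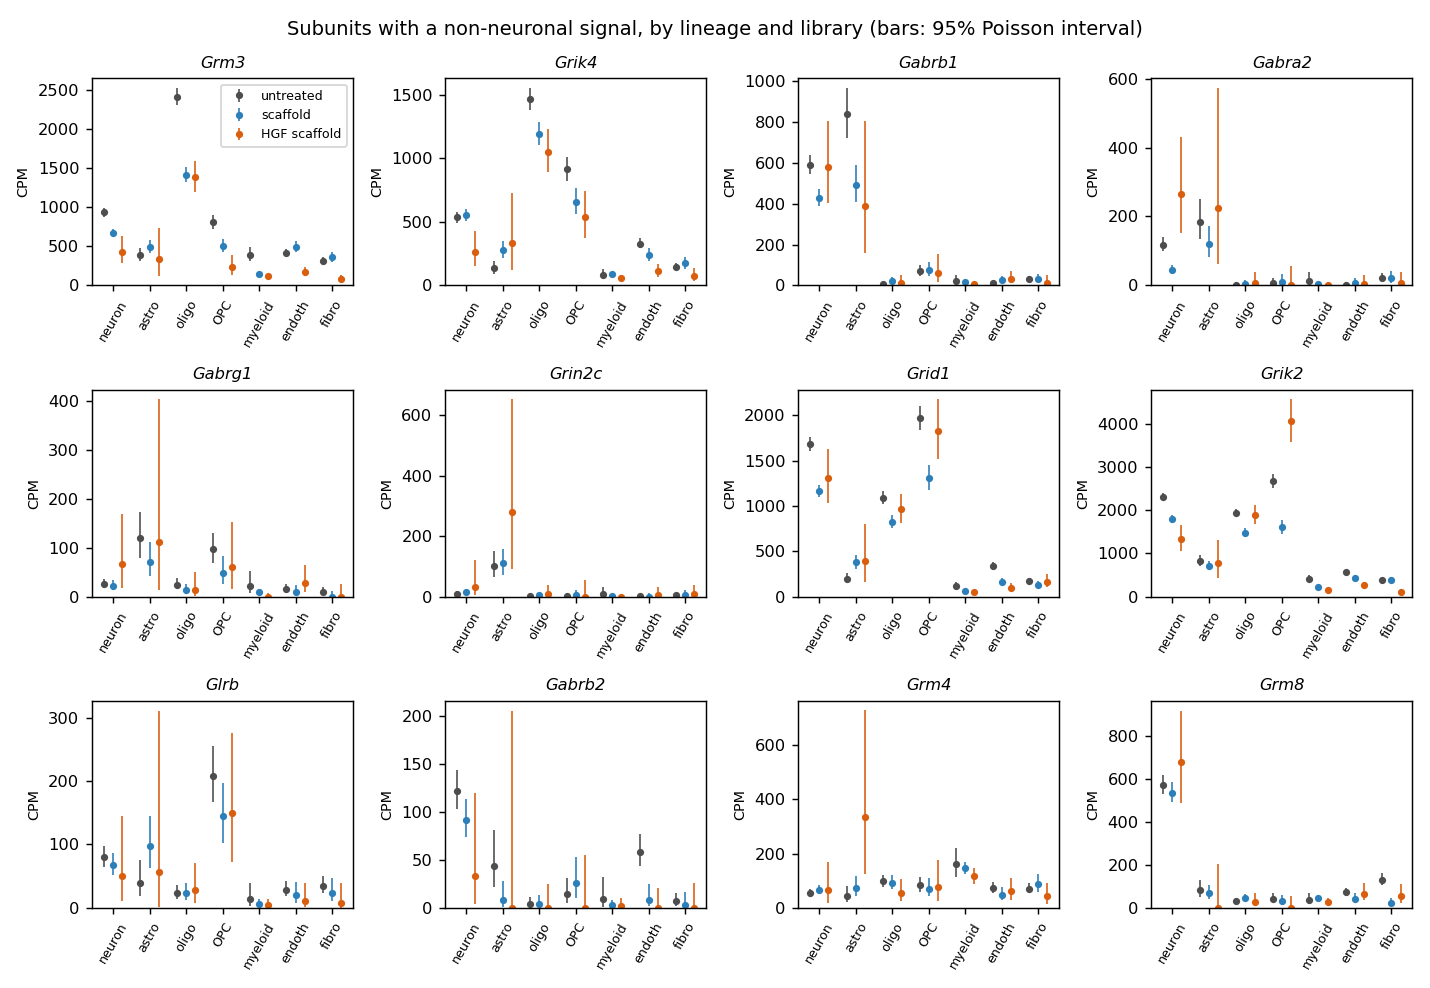
CPM (linear axis from 0, with 95% Poisson intervals) of 12 receptor subunit genes with a signal outside neurons, in 7 lineages; grey, blue and orange points are the untreated, scaffold and HGF scaffold libraries. Grm3 and Grik4 are highest in oligodendrocytes in each library, Grin2c in astrocytes and Glrb in OPC.

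In Schwann cells, the glia of peripheral nerve, Grik2 was at 1712, 1732 and 2267 CPM (the last from 13 nuclei), near the oligodendrocyte level, and Grin2b was at 199 CPM over all libraries. The receptor genes had a median of 4.75% of their neuronal level in myeloid cells, where Grik2 was at 217 CPM, Grm3 at 166 and Grm4 at 139. Grm4 was above its pooled neuronal level in each library there, at 160, 146 and 116 CPM. Gabrr2, a rho subunit, peaked in myeloid cells at 8.18 CPM from 15 UMIs. Endothelial cells had Grik2 at 486 CPM and Grm3 at 404, and fibroblasts Grik2 at 358 CPM and Grm3 at 303. Among the unnamed clusters, one led by Slc26a7 and Adamtsl3 had Grm8 at 330 CPM, one led by Slc6a20 and Slc6a13 had Glrb at 148 CPM, and one led by Pik3c2g had Grin3a at 266 CPM.

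Within neurons, nuclei with a UMI of an inhibitory marker (Gad1, Gad2, Slc32a1 or Slc6a5, genes of GABA and glycine synthesis and release) numbered 103, and those with a glutamate vesicle transporter and none of these numbered 39. The inhibitory set included 6 nuclei with markers of both kinds, and Gad1 was not restricted to neurons (34.0 CPM in astrocytes, 26.8 in neurons). Of 39 receptor genes compared between the sets, 3 were called higher in inhibitory neurons (2.79% of all genes) and 0 in excitatory ones (1.69%). Grik1 was 3.47-fold (2.77 to 4.41) higher in the inhibitory set, at 5.51-fold in the untreated and 1.90-fold in the scaffold library. Grik3 was 3.49-fold (2.32 to 5.47) higher, at 2.94-fold and 4.05-fold. Grm8 was 2.28-fold (1.87 to 2.81) higher, at 1.79-fold and 5.05-fold. The direction was the same in both larger libraries for all 3. After thinning to 500 UMIs per nucleus 0 of these calls remained, and the other 213 neurons had no marker of either kind.

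Between the scaffold and the untreated library, neurons showed lower receptor levels across families. A gene was called higher or lower where its CPM differed at least 2-fold, its interval excluded a ratio of 1, and both libraries together held at least 20 UMIs. Of 40 receptor genes tested, 0 were called higher (9.45% of all genes) and 2 lower (1.26% of all genes). The lower calls included the GABA-A subunit Gabra2, at 119 CPM in the untreated and 44.5 in the scaffold library (ratio 0.375, 0.26 to 0.532). Over the alternatives tried the Gabra2 ratio ran from 0.316 to 0.419.

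The lower level was not limited to the called genes: 35 of the 40 ratios were under 1, 24 with an interval under 1 and 1 (Grik3) with an interval above it. The median log2 ratio was -0.45 for the receptor genes and 0.23 for all 8512 genes tested. Relative to the median gene, 37 of 40 were lower, and Grik3 (1.36, 1.09 to 1.69), Grin2c (1.39, 0.575 to 3.43) and Grm4 (1.26, 0.870 to 1.82) were not. When ratios were divided by that of the median gene, 0 receptor genes were called higher and 6 lower, with Gria2 and Grin3a among those added. All genes then gave 522 higher and 250 lower, in place of 804 and 107. Gria2 at 0.509 (0.448 to 0.577) lay just outside the 2-fold limit.

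By family, the median ratio was 0.655 for the AMPA genes. It was 0.699 for the metabotropic, 0.713 for the NMDA, 0.740 for the GABA-A, 0.824 for the glycine, 0.869 for the kainate and 0.962 for the GABA-B genes. Within AMPA receptors the ratio ran from 0.509 for Gria2 to 0.801 for Gria1. Grik4 (1.03), Gabbr2 (1.01) and Glra2 (0.999) were close to even. In the HGF scaffold library 30 neurons with 60410 UMIs were too few to compare. There Gabra2 was at 265 CPM from 16 UMIs.

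The 11 neuronal reference genes summed to 6000 CPM in untreated, 4866 in scaffold and 9932 in HGF scaffold neurons, so that other neuronal transcripts were also lower in the scaffold neurons. Receptor genes are long, and the ratio also followed gene span. In the shortest of 5 equal bins of genes by span (the length of the gene in RefSeq's GRCr8 annotation) the median log2 ratio was 0.48, and in the longest bin (102 kb and up) it was -0.07. Of the receptor genes, 28 were in the longest bin, with a median of -0.49, and 24 of them were below the median of that bin. Less RNA per cell, another mix of neurons and differences between the libraries cannot be told apart with 1 library per group.

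**Figure D4:**
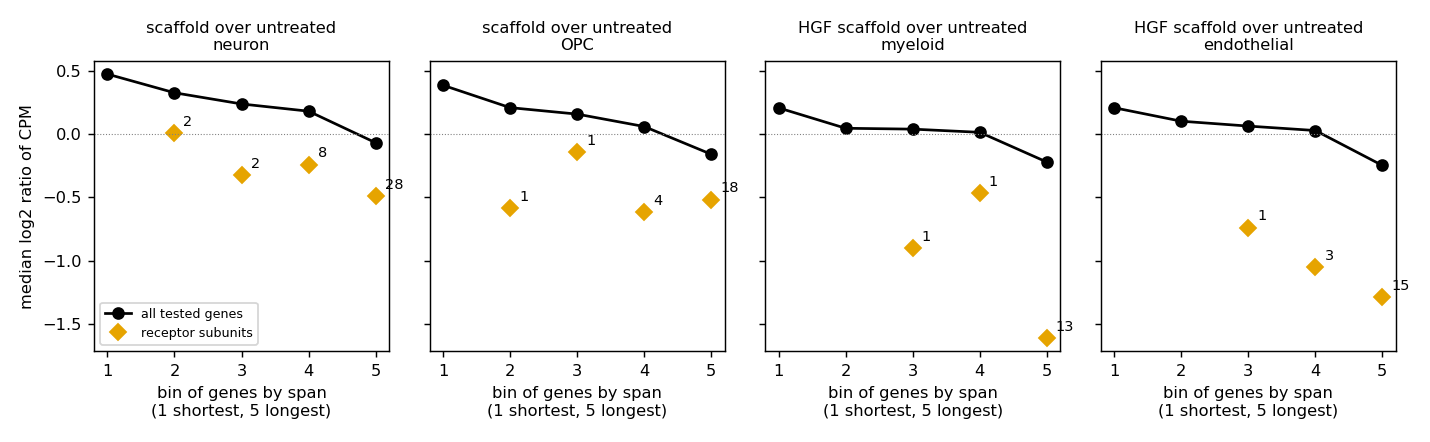
Median log2 ratio of CPM (vertical axis) in 5 equal bins of genes by span in RefSeq GRCr8 (horizontal axis, 1 shortest to 5 longest) for 4 comparisons; black points and lines are all tested genes and gold diamonds are the receptor subunits, with their number beside them. In the longest bin the diamonds lie at -0.49 in neurons and -0.52 in OPC (scaffold over untreated), and at -1.61 in myeloid and -1.29 in endothelial cells (HGF scaffold over untreated), below the black points at -0.07, -0.16, -0.22 and -0.25. Some lineages not drawn differed. For scaffold over untreated, receptor medians in that bin lay above those of all genes in oligodendrocytes (0.17 against -0.06), fibroblasts (0.03 against -0.10), Schwann cells (-0.04 against -0.25) and astrocytes (-0.001 against -0.03).

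Genes that work with the receptors were mostly uncalled in the same neurons. For scaffold over untreated, 0 of 9 genes of glutamate release and uptake, 0 of 8 of GABA and glycine synthesis and release, 0 of 10 auxiliary subunits, 0 of 15 excitatory scaffold genes, 0 of 3 delta receptor ligands and 0 of 2 chloride transporters were called. Of 9 inhibitory scaffold and GABA-B auxiliary genes, 1 was called higher and 1 lower. Over all genes 9.45% were called higher and 1.26% lower, so that lists of this size are too short to be read against those shares. Gabarap, which binds GABA-A receptors in trafficking, was at 20.2 CPM untreated and 47.6 with the scaffold (2.36, 1.40 to 4.07). Kctd16, an auxiliary subunit of GABA-B receptors, was at 925 and 426 CPM (0.461, 0.410 to 0.517), while Gabbr1 and Gabbr2 had ratios of 0.916 and 1.01. Slc12a5, the neuronal chloride exporter on which inhibition by these channels depends, was at 119 CPM in neurons and not called.

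In astrocytes, 3 of 24 receptor genes were called higher with the scaffold (4.39% of all genes) and 0 lower (3%). Gria4 was at 176 CPM untreated and 462 with the scaffold (2.62, 1.82 to 3.85), Glrb at 39.7 and 97.8 (2.47, 1.11 to 6.01) and Grik4 at 137 and 278 (2.03, 1.32 to 3.21). The median log2 ratio was 0.06 for the receptor genes and 0.02 for all genes. Neuronal reference genes were at 670 CPM in untreated and 806 in scaffold astrocytes, and when nuclei of mixed markers were removed the Gria4 ratio was 1.12. With lineages set by the highest marker score the Glrb ratio was 0.790.

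In oligodendrocytes, 1 of 22 receptor genes was called higher (9.69% of all genes) and 0 lower (1.24%). The neuronal reference was at 143 and 249 CPM in these cells. The genes that define these cells among the receptors, Grm3 and Grik4, were lower with the scaffold by less than 2-fold and so were not called. Of the 22 ratios, 6 had an interval under 1 and 1 an interval above it. In OPC, 1 of 24 was called higher (9.77%) and 1 lower (2.19%): Gabbr2 at 30.6 and 85.2 CPM (2.78, 1.35 to 5.98) and Gabrg1 at 96.6 and 48.2 CPM (0.498, 0.245 to 0.949). The OPC median log2 ratio was -0.52 for the receptor genes and 0.12 for all genes, and 20 of 24 ratios were under 1. Division by the median gene added Grm7 (0.531, 0.445 to 0.630) to the lower calls. The Gabrg1 ratio was 1.57 after thinning.

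In Schwann cells, 1 of 11 was called higher (8.13%) and 1 lower (5.62%). Grm3 was at 273 CPM untreated and 581 with the scaffold (2.13, 1.41 to 3.21), and this direction was turned by 3 of the alternatives. Grid1 was at 164 and 61.1 CPM (0.373, 0.126 to 0.922).

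In endothelial cells, 1 of 19 was called higher (5.91%) and 2 lower (5%). Grm5 was at 40.2 CPM untreated and 114 with the scaffold (2.84, 1.75 to 4.64), beside a neuronal reference of 163 and 273 CPM, whose part in this was not tested. Gabrb2 was at 58.4 and 8.35 CPM (0.143, 0.0285 to 0.444), and Grid1 at 337 and 162 CPM (0.479, 0.354 to 0.638), the latter turned by 2 alternatives (1.02 with each library clustered alone and 1.36 after thinning).

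In fibroblasts, 1 of 24 was called higher (7.03%) and 1 lower (5.61%). Grin2a was at 94.3 and 194 CPM (2.05, 1.45 to 2.91), a call that ended on division by the median gene and turned to 0.197 with each library clustered alone. Grm8 was at 131 and 23.5 CPM (0.178, 0.075 to 0.366), with 1.03 after thinning.

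In myeloid cells 0 of 23 receptor genes were called higher with the scaffold (5.51%) and 5 lower (7.07%), and the median log2 ratio was -0.76 against -0.03 for all genes. The lower genes included Grm3 (395 CPM untreated, 143 with the scaffold; 0.361, 0.276 to 0.475), Grin2b (57.7 and 22.4; 0.388) and Gria1 (62.2 and 20.5; 0.330). The myeloid clusters differed in their mix. The cluster led by Alpk3 and Blnk held 209 of the untreated, 100 of the scaffold and 33 of the HGF scaffold nuclei, and the one led by Msr1 and Itgam held 16, 358 and 271. Within the Alpk3 and Blnk cluster 11 genes could be tested, of which 0 were called higher (3.06% of all genes tested in that cluster) and 1 lower (2.6%): Grm3, at 0.300 (0.160 to 0.525). The other 4 calls ended there. Gria1 kept a ratio of 0.263 (0.0286 to 1.18), with 2 scaffold and 12 untreated UMIs, under the minimum for a call. Grin2b was at 0.632 (0.145 to 2.19), from 4 and 10 UMIs.

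**Figure D5:**
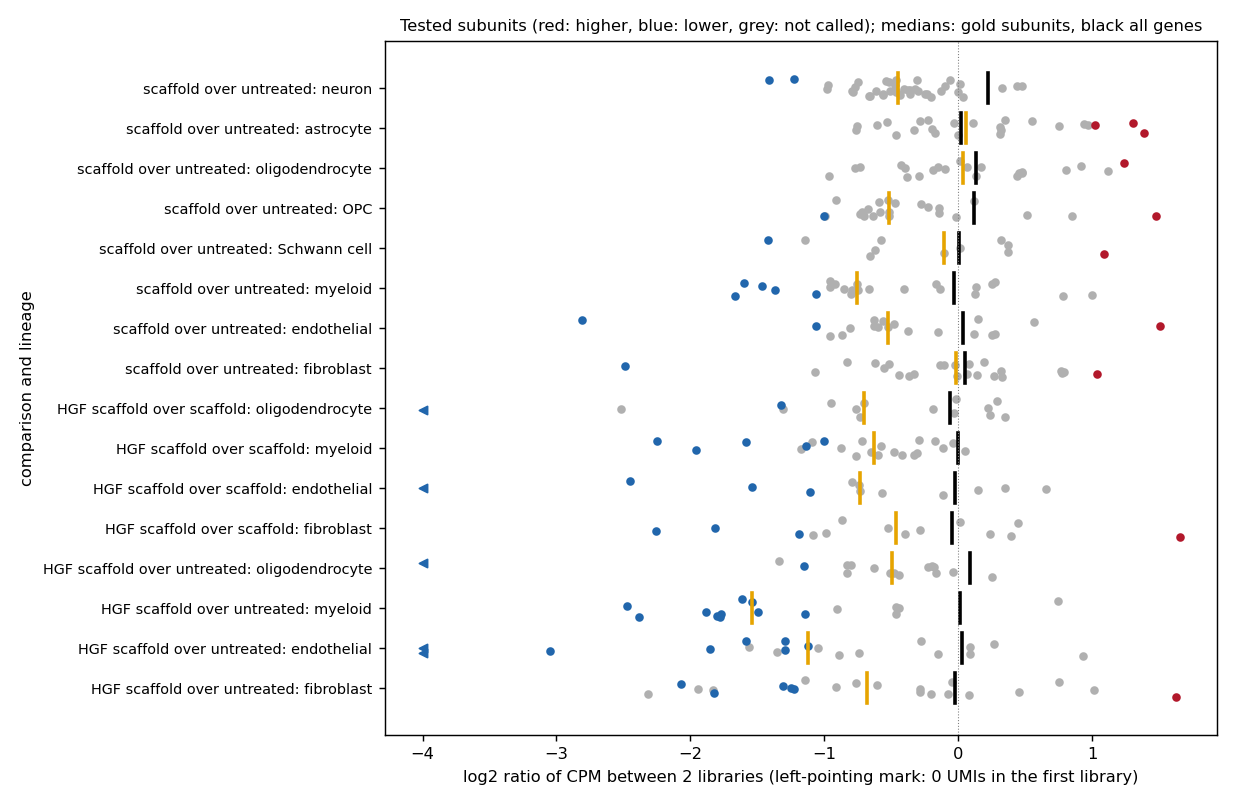
Log2 ratio of CPM between 2 libraries (horizontal axis) for each receptor subunit tested, by comparison and lineage (rows); red and blue points were called higher and lower, grey were not called, left-pointing marks had 0 UMIs in the first library, and vertical strokes are the medians of the receptor subunits (gold) and of all tested genes (black). The gold stroke lies left of the black one in each row except astrocytes, with the widest gap in myeloid cells for HGF scaffold over untreated (-1.54 against 0.02).

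The HGF scaffold library could be compared in 4 lineages with at least 50 nuclei in both libraries: oligodendrocytes, myeloid cells, endothelial cells and fibroblasts. Against the scaffold library its receptor genes were called lower 14 times and higher 1 time over these lineages. Of all genes, 2.53% to 4.38% were called lower and 1.85% to 3.34% higher, depending on the lineage. Since its comparisons with the other libraries share the same HGF scaffold nuclei, they are given side by side and are not independent.

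In oligodendrocytes, 0 of 15 genes were called higher over scaffold (1.85%) and 2 lower (3.59%), and 0 of 16 were called higher over untreated (5.2%) and 2 lower (2.28%). The same pair was called in both. Grm5 had 52 UMIs in untreated, 51 in scaffold and 0 in HGF scaffold oligodendrocytes, which is at least 4.43-fold lower than scaffold and at least 3.24-fold lower than untreated against a floor of 3 UMIs per library. Grm7 was at 152, 171 and 68.3 CPM, a ratio of 0.400 (0.186 to 0.767) over scaffold and 0.449 (0.210 to 0.856) over untreated. The neuronal reference in these cells was 143, 249 and 102 CPM. Grm3 at 1385 and Grik4 at 1051 CPM were below their untreated levels by less than 2-fold and were not called.

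In myeloid cells, 0 of 22 genes were called higher over scaffold (2.67%) and 5 lower (2.53%). The lower genes included Grm5 (89.6 CPM with the scaffold, 29.8 with the HGF scaffold; 0.333, 0.183 to 0.569), Grm7 (97.0 and 48.5; 0.500), Gria4 (82.1 and 37.3; 0.454) and Glra3 (17.7 and 3.73; 0.210, from 2 UMIs). Each of these 4 genes peaked in neurons, and the neuronal reference in myeloid cells was 368, 332 and 164 CPM. Within the Msr1 and Itgam cluster 0 of 18 genes were called higher (1.93% of all genes tested there) and 6 lower (2.79%). Within the Alpk3 and Blnk cluster, with 33 HGF scaffold nuclei, 8 genes could be tested, 1 of them called higher (3.07%) and 0 lower (3.12%). The higher one was Grm7 (3.16, 1.18 to 8.17, from 9 and 12 UMIs), opposite to its call over all myeloid cells.

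Over untreated, 0 of 15 myeloid receptor genes were called higher (7.53%) and 10 lower (8.31%), with a median log2 ratio of -1.54 against 0.02 for all genes. The 5 with the lowest ratios were Gria1 (0.180), Grm5 (0.192), Gria4 (0.271), Grm7 (0.287) and Grin2b (0.291). Within the Alpk3 and Blnk cluster 10 genes could be tested, 1 of them called higher (3.32% of all genes tested there) and 1 lower (2.54%). The direction turned for Grin2b, Grm7 and Grid1, with ratios of 3.33, 2.14 and 2.12, each with an interval that included 1. It stayed lower for Gria2 and Grm5, at 0.444 from 1 and 2 HGF scaffold UMIs, and for Gria1 and Gria4, which had 0 UMIs there against 12 and 30 in the untreated nuclei.

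In endothelial cells, 0 of 12 genes were called higher over scaffold (3.15%) and 4 lower (3.3%). Gria4 had 62 UMIs in untreated, 30 in scaffold and 0 in HGF scaffold endothelial cells. With the floor of 3 UMIs in place of the 0, the level was 5.07-fold lower than scaffold and 4.58-fold lower than untreated. Grm7 was at 181, 120 and 21.9 CPM (0.183, 0.0478 to 0.504 over scaffold), Grm3 at 416, 496 and 170 (0.343, 0.226 to 0.505) and Grik4 at 330, 237 and 110 (0.464, 0.270 to 0.762). Over untreated, 0 of 19 were called higher (6.72%) and 8 lower (6.09%), with a median log2 ratio of -1.12 against 0.03. The first 5 by size were Grm7 (0.121), Grid1 (0.277), Grik4 (0.333), Gria4 and Gabrb2. Gabrb2, with 48 untreated and 0 HGF scaffold UMIs, was 3.55-fold lower with the same floor. The neuronal reference was 163 (137 to 193), 273 and 247 (180 to 330) CPM in the untreated, scaffold and HGF scaffold endothelial cells.

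In fibroblasts, 1 of 14 genes was called higher over scaffold (3.34%) and 3 lower (4.38%). Gria3 was at 35.9, 35.2 and 111 CPM in the 3 libraries (3.15, 1.40 to 7.28 over scaffold, from 12 and 16 UMIs). Over the alternatives tried the Gria3 ratio ran from 0 to 3.25 over scaffold and from 0 to 3.43 over untreated. Grm3 was at 319, 364 and 76.1 CPM (0.209, 0.102 to 0.388), Grik2 at 392, 390.1 and 111 (0.284, 0.158 to 0.478) and Grik4 at 143, 173 and 76.1 (0.440, 0.208 to 0.845). The HGF scaffold library was the low one for each of these 3 genes, while the other libraries were close. Over untreated, 1 of 22 was called higher (5.67%), Gria3 at 3.09, and 5 lower (5.31%), among them Grm3 (0.239), Grik2 (0.283), Grm8 (0.421) and Grm7 (0.427). The neuronal reference was 183, 240.5 and 194 CPM.

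Some genes that work with the receptors were called as well. Nrxn3, a neurexin, was called lower over scaffold in oligodendrocytes (210.0 CPM with the scaffold, 54.6 with the HGF scaffold; 0.260), myeloid cells (205 and 52.2; 0.254) and fibroblasts (240.5 and 55.3; 0.230). In myeloid cells 3 of 8 excitatory scaffold genes, Dlg2, Dlgap1 and Dlgap2, were called lower over scaffold (2.53% of all genes) and 0 higher (2.67%). For scaffold over untreated, 1 of 8 was called higher (Dlgap2, 5.51% of all genes) and 2 lower (Shank3 and Homer1, 7.07%). Of 4 genes of glutamate release and uptake tested in myeloid cells, 1 was called higher and 1 lower over untreated with each scaffold. With the HGF scaffold over untreated, 7.53% of all genes were called higher and 8.31% lower. Lists of this size are too short to be read against such shares. Among the 4, the glutamate transporter Slc1a3 was the lower one (812 CPM untreated, 270 and 313 with the scaffolds), and the glutamine transporter Slc38a1 the higher one (26.6 CPM untreated, 77.5 and 80.2 with them). The mix of myeloid clusters differed between the libraries, as given above. No values within a cluster are given for these genes, so a change of mix cannot be told apart from a change within cells.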

How the data were processed

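Nuclei were isolated with a kit for neuronal tissue, made into 10x 3′ libraries and sequenced on a HiSeq X, per the labels' protocols. The deposited matrices hold raw UMI counts per gene and nucleus. The submitters' processing notes name Cell Ranger 6.0.1 as the tool behind them. The genome build and annotation are not given in the sources used here.

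Nuclei with under 200 genes or over 5% mitochondrial UMIs were removed (4 of 5326). Each nucleus was brought to a sum of 10000 and log-transformed. The 2000 most variable genes other than the 52 receptor genes gave 30 principal components, 15 neighbours and Leiden clusters at resolution 1 (Python 3.11.15, scanpy 1.11.5, leidenalg 0.10.2). A cluster was named where at least 3 markers of a lineage were among its 100 leading genes and its leading genes did not go against the name. Of 219 listed marker genes 192 were found, none of them a receptor gene, and of 90 pathway genes 87 were found. Mural and skeletal muscle nuclei, under 50 each, were not compared. No doublet caller was run: nuclei with at least 3 markers each of 5 or more of 7 lineages were removed as an alternative.

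UMIs were summed per library and lineage. Exact Poisson and conditional Clopper-Pearson 95% intervals were computed with scipy 1.17.1. No test was run, since each group is 1 library. With 0 UMIs, the floor was 3 counts per library and lineage. The calling rule was tested on simulated counts with Poisson error only, the error its intervals assume. That test does not cover variation between nuclei or libraries. Genes are named by rule: per lineage up to 5 that peak there, called genes up to 5 per direction, the most and fewest neuronal UMIs per family, neighbours of the 2-fold limit and called pathway genes. The receptor genes and lists were chosen with earlier results of these data known, and the gene span description, the genes named in unnamed clusters and the choice of shown windows came after values were seen. A few genes are counted in the totals but their own values are not reported here.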

Additional observations from a re-analysis of the deposited data

Results flagged for a closer look

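Grm3, the receptor gene that peaks in oligodendrocytes, was called in opposite directions between the scaffold and untreated libraries in 2 other lineages. The ratio was 2.13 (1.41 to 3.21) in Schwann cells, from 57 and 45 UMIs, and 0.361 (0.276 to 0.475) in myeloid cells, from 153 and 89 UMIs. Each group is 1 library, so the difference between the lineages was not tested. The Schwann cell direction turned under 3 of the alternatives given in the next section, while the myeloid ratio stayed between 0.300 and 0.841.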

How the results depend on the processing

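With 1 library per group, depth and nuclei per lineage limit what can be seen. The HGF scaffold library had 30 neurons, and with 0 UMIs in them the limit of 3 counts is 49.7 CPM. No paired analysis was possible because each group has 1 library. For neurons, scaffold over untreated, the median log2 ratio of the receptor genes minus that of all genes was -0.67 and moved by less than 0.2, an arbitrary limit, under every alternative tried. Of 649 values of 56 ratios under alternatives, 575 kept their direction and moved within their interval, 60 moved further and 14 turned. The cause was not tested for any of these changes. Another UMI minimum or fold alters calls and not ratios. The 53 of 53 values kept under each such alternative are among the 575 but could not move, so they are no sign of stability.

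With lineages set by marker score, 2 genes peaked in astrocytes and 2 in OPC. With equal weight per nucleus 7 peaked in OPC, and after thinning to 500 UMIs 9 did. For scaffold over untreated (8 higher, 12 lower), the higher calls were 2 with equal weight, 5 at a minimum of 50 UMIs and 3 after thinning, and the lower calls were 42 at a fold of 1.5 and 4 after thinning. For HGF scaffold over scaffold (1 higher, 14 lower), the higher calls were 2 without mixed nuclei, 3 at a minimum of 10 UMIs or none, and 0 with marker score, equal weight, 50 UMIs or thinning. The lower calls were 23 at resolution 2. For HGF scaffold over untreated (1 higher, 25 lower), the higher calls were 2 with receptor genes in the clustering, at resolution 2 or at a fold of 1.5, and 0 with marker score, libraries clustered alone, 50 UMIs or thinning. The lower calls were 13 after thinning. With the Alpk3 and Blnk cluster as the only myeloid nuclei, an alternative chosen after seeing the data, the HGF scaffold comparisons gave 2 higher and 9 lower over scaffold, and 2 higher and 16 lower over untreated. Inhibitory neurons had 5 genes called higher without mixed nuclei and 0 after thinning, when excitatory neurons had 1. As reported above, the numbers were 3 in inhibitory and 0 in excitatory neurons. The shares of all genes called are not given for the alternatives, so the counts in this paragraph show only how the receptor calls moved.

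Ratios that turned for scaffold over untreated were Glrb in astrocytes (0.790, marker score), Gabrg1 in OPC (1.57, thinned), Grm3 in Schwann cells (0.763 with receptor genes in the clustering, 0.698 by marker score, 0.576 with libraries clustered alone), Grid1 in endothelial cells (1.02 with libraries clustered alone, 1.36 thinned), and in fibroblasts Grin2a (0.197, libraries clustered alone) and Grm8 (1.03, thinned). Grik4 in fibroblasts turned for HGF scaffold over scaffold (1.62, thinned). Gria3 in fibroblasts was not counted as turned, although its lowest HGF scaffold ratio was 0 over scaffold and over untreated. In the Alpk3 and Blnk cluster Grm7 turned over scaffold (3.16), and Grid1 (2.12), Grin2b (3.33) and Grm7 (2.14) over untreated.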
